A study of Mus musculus with 8 samples.

Results

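Nppa and Nppb encode the precursors of the atrial and the B-type natriuretic peptide, hormones that heart muscle cells release and that lower blood pressure and volume through guanylyl cyclase receptors. Both are short genes with few exons that lie side by side in the mouse genome, and both belong to the fetal cardiac programme that declines in the ventricle after birth and returns under load. SRSF3 is a small SR protein, a family whose members bind RNA through an RNA recognition motif and act in splicing and mRNA export. Its contacts with both transcripts were read from single-nucleotide iCLIP tracks, in which UV light fixes the protein to RNA and each cDNA marks the place next to the crosslink where the reverse transcriptase stopped. The cDNAs were those on the plus strand of mouse chromosome 4 (build mm9). The intervals were chr4:147374700-147376400 for Nppa (1701 nt) and chr4:147359700-147361500 for Nppb (1801 nt). These were 2 intervals beside 550485 windows of 2 kb per strand that held a cDNA in either iCLIP replicate.

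The series held 8 mouse samples in 3 groups. The group used here was SRSF3-GFP iCLIP of cardiomyocytes from C57BL/6 pups at P0-1 (2 replicates), transfected with 15 µg of modified mRNA for SRSF3 fused to green fluorescent protein and irradiated 48 h later. Hearts of adult C57BL/6 mice with floxed SRSF3 and a tamoxifen-inducible Cre under the alpha-MHC promoter (3 hearts) and hearts of mice with the Cre alone (3 hearts), all given 4-hydroxytamoxifen, are not analysed here. The labels do not say whether the iCLIP replicates came from separate cultures, and both file headers carry the same library identifier, so spread between them may be technical. The tagged protein came from the transfected RNA, the series has no control immunoprecipitation among its labels, and cDNA counts also follow the amount of each RNA, which the tracks do not give. Fewer cells with a transcript and less of it per cell cannot be told apart in such bulk libraries.

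Replicate 1 held 815414 cDNAs and replicate 2 held 2253688, which was 2.76 times as deep. A track merged by the authors summed 5 libraries. Its excess over the 2 replicates, 1138453 cDNAs, came from 3 libraries that the labels do not describe and is called the other libraries. A count of 0 allows up to 3 cDNAs, which is 2.16 cDNAs per 1000000 library cDNAs per kb (CPM per kb) in the Nppa interval of replicate 1 and 0.783 in that of replicate 2. Intervals and limits cover counting error only.

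The annotated genes and mature RNAs are described first. The tracks hold cDNA hits in the genome, so a cDNA could also fall on an intron or beyond the gene. In the GENCODE M21 annotation (build GRCm38) the Nppa gene spans 1358 nt with exons of 233, 327 and 305 nt and introns of 103 and 390 nt. The Nppb gene spans 1418 nt with exons of 314, 223 and 244 nt and introns of 194 and 443 nt. Most of the coding sequence lies in exons 1 and 2 of both, and exon 3 carries only the last 9 coding bases before the stop codon in Nppa and 14 in Nppb. That build differs from mm9, so no iCLIP position was assigned to an exon, an intron or a UTR.

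The exon junctions of both mRNAs are shown because the aligner named for these tracks, Bowtie of the first generation, places reads without gaps, so a cDNA that crosses a junction of a spliced RNA has no contiguous match in the genome. The end of the upstream exon is in lower case and the start of the downstream exon in capitals, read from the GENCODE M21 transcripts.
Nppa exon 1 to exon 2: ctgatggatttcaagAACCTGCTAGACCAC
Nppa exon 2 to exon 3: tgcaacagcttccggTACCGAAGATAACAG
Nppb exon 1 to exon 2: caattcaagatgcagAAGCTGCTGGAGCTG
Nppb exon 2 to exon 3: gtttgggctgtaacgCACTGAAGTTGTTGT

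The longest identical run between the Nppa and the Nppb transcript, both read in the sense direction, was 10 bases. None of the 752 words of 30 nt in the Nppb transcript occurred in a transcript of another gene on either strand. In Nppa 476 of 836 did, all in Gm13054, an antisense RNA gene annotated on the minus strand over Nppa itself.

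A motif known for SRSF3, written WCWWC where each W is A or T, was rare in both mRNAs. It was searched on the transcript strand only, with overlapping matches counted. It occurred 5 times in Nppa, or 0.578 per 100 nt, and 2 times in Nppb, or 0.256 per 100 nt. The median over the longest protein-coding transcript of 21877 genes was 0.847 per 100 nt, 86.8% of them held it more densely than Nppa and 98.9% more densely than Nppb, and 99.7% held it at least once. CNNC, a looser motif also linked to SRSF3, occurred 77 times in Nppa (8.90 per 100 nt) and 52 times in Nppb (6.66). The median was 6.48, and 99.9% of the transcripts held CNNC. It was denser than in Nppa in 17.0% of them and denser than in Nppb in 47.2%. Base composition was not allowed for with either motif. All 7 WCWWC matches are shown, with the motif in capitals.
Nppa, exon 1, 5′ UTR: gacagcaaACATCagatcgtg
Nppa, exon 1, coding: cctgggctTCTTCctcgtctt
Nppa, exon 2, coding: tggggaggTCAACccacctct
Nppa, exon 3, 3′ UTR: tcctgcctTCATCtatcacga
Nppa, exon 3, 3′ UTR: aagaataaACTTCagcaccaa
Nppb, exon 3, 3′ UTR: gttgttttTCTACaagactgt
Nppb, exon 3, 3′ UTR: aacttgccACAACataataaa
A match is a description of these letters and was not joined to any cDNA.

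How strongly each transcript was covered was asked next. Nppa held 65 cDNAs at 60 positions in replicate 1 and 173 cDNAs at 144 positions in replicate 2. That was 46.9 CPM per kb (exact 95% Poisson interval 36.2 to 59.7) and 45.1 CPM per kb (38.7 to 52.4), a mean of 46.0 ± 1.23 (SD, n = 2). The replicates nearly coincided for this gene. Nppb held 72 cDNAs at 67 positions in replicate 1 and 130 cDNAs at 116 positions in replicate 2, or 49.0 CPM per kb (38.4 to 61.7) and 32.0 (26.8 to 38), a mean of 40.5 ± 12.0 (SD, n = 2). Here replicate 1 was the higher one and the 2 intervals did not overlap.

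Both genes stood high among the tiled windows of the genome. In replicate 1 the Nppa interval had 38.2 cDNAs per kb and the Nppb interval 40.0, against a median of 0.5 over the 283355 windows with a cDNA, of which 209 were higher than Nppa and 194 higher than Nppb. In replicate 2 Nppa had 102 cDNAs per kb and Nppb 72.2, against a median of 1 over 486238 windows, of which 207 and 362 were higher. The intervals were laid around the genes and the windows were not, which favours the genes in this rank, and no test was made of it. Windows without a cDNA were left out, and the replicate 1 median of 0.5 is the lowest value that a counted 2 kb window can have.

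**Figure D1:**
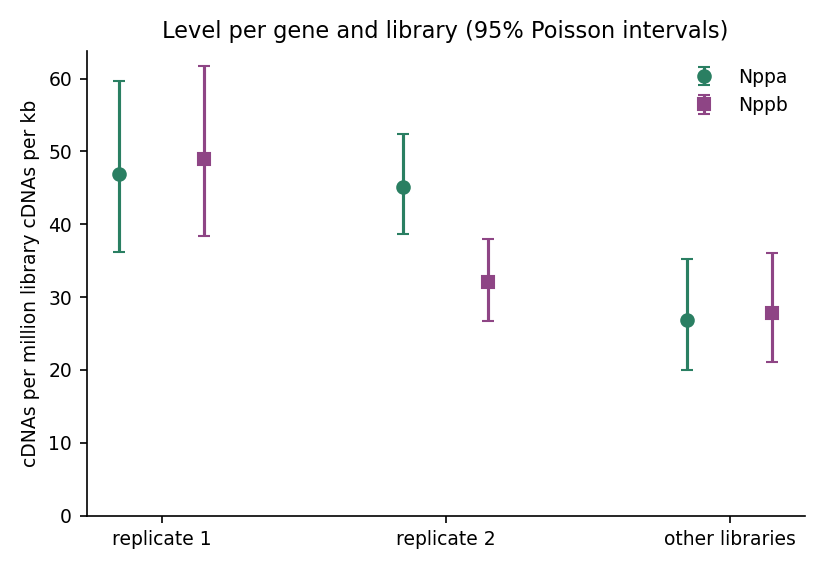
Level of Nppa (circles) and Nppb (squares) in CPM per kb of the interval in replicate 1, replicate 2 and the other libraries of the merged track, with exact 95% Poisson intervals that cover counting error only. The genes overlap in replicate 1 (46.9 and 49.0) and in the other libraries (26.9 and 27.8), and Nppa lies above Nppb in replicate 2 (45.1 and 32.0).

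No difference in density between the hormone transcripts passed in both replicates. In replicate 1 Nppa and Nppb differed by less than counting error, with a log2 ratio of Nppa to Nppb per kb of -0.07 (exact 95% interval -0.57 to 0.44, two-sided exact binomial test against the interval lengths, p = 0.798). In replicate 2 Nppa was the denser gene, with a log2 ratio of 0.49 (0.16 to 0.83, exact binomial p = 0.00332). The mean was 0.21 ± 0.40 (SD, n = 2), so the difference between the genes was smaller than the spread between the replicates. In the other libraries the log2 ratio was -0.05 (-0.62 to 0.52, exact binomial p = 0.924), close to that of replicate 1. The ratio itself differed between replicate 1 and replicate 2 by a log2 odds ratio of -0.56, which did not pass (two-sided Fisher's exact test, p = 0.0637).

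Each gene was also compared between the replicates in a test across 26000 regions, the 2 kb windows with at least 20 cDNAs and both gene intervals, of which 15 (0.0577%) differed at a 5% false discovery rate, all higher in replicate 1. Nppa had 79.7 CPM in replicate 1 and 76.8 CPM in replicate 2, a log2 ratio of 0.05 (-0.38 to 0.47, exact binomial test with Benjamini-Hochberg adjustment, adjusted p = 1). Nppb had 88.3 CPM in replicate 1 and 57.7 CPM in replicate 2, a log2 ratio of 0.61 (0.18 to 1.04). Its unadjusted p was 0.00513 (exact binomial test), beside 5.05% of the regions with an unadjusted p under 0.05, and its adjusted p was 0.801, so neither gene was called.

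Along the 2 intervals the cDNAs were laid out differently. Nppa had a dense cluster near its 5′ end and another towards its 3′ end with a thinner stretch between them. Nppb also had a dense first run, but a larger share of its cDNAs lay in the middle. Each interval was cut along the plus strand into 3 parts of equal length. These parts were not matched between the genes for exon, intron or junction content. The middle part was picked out for its difference after the values were seen. It held 12 of the 65 Nppa cDNAs, 18.5% (Wilson 95% interval 10.9% to 29.6%), and 32 of the 72 Nppb cDNAs, 44.4% (33.5% to 55.9%), in replicate 1. In replicate 2 it held 34 of 173 for Nppa, 19.7% (14.4% to 26.2%), and 55 of 130 for Nppb, 42.3% (34.2% to 50.9%). Both differences passed after adjustment over the 12 tests on these parts (two-sided Fisher's exact test, adjusted p = 0.00676 in replicate 1 and 0.000283 in replicate 2), and the shares of the replicates lay far closer to each other than those of the genes.

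The 5′ part held 46.2% of Nppa and 29.2% of Nppb cDNAs in replicate 1, which did not pass (adjusted p = 0.155, Fisher's exact test), and 48.6% of Nppa and 30% of Nppb cDNAs in replicate 2, which did (adjusted p = 0.00676). The 3′ part held 33.6% ± 2.54 of Nppa and 27.0% ± 0.922 of Nppb cDNAs (SD, n = 2), and no difference between the genes passed there (adjusted p = 0.651 and 0.902, Fisher's exact test). Within each gene no part passed between the replicates, with the smallest unadjusted p at 0.643 (Fisher's exact test). The intervals carry unequal margins, since the first listed Nppb position of any library, 147360016, was nucleotide 317 of its interval, while the first run of dense Nppa bins began at nucleotide 151. With the 3 parts taken over the span of the middle 95% of merged cDNAs, 147374868 to 147376262 for Nppa and 147360057 to 147361232 for Nppb, the middle one held 11.5% of Nppa and 35.3% of Nppb cDNAs in replicate 1 and 15.2% and 30.6% in replicate 2.

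**Figure D2:**
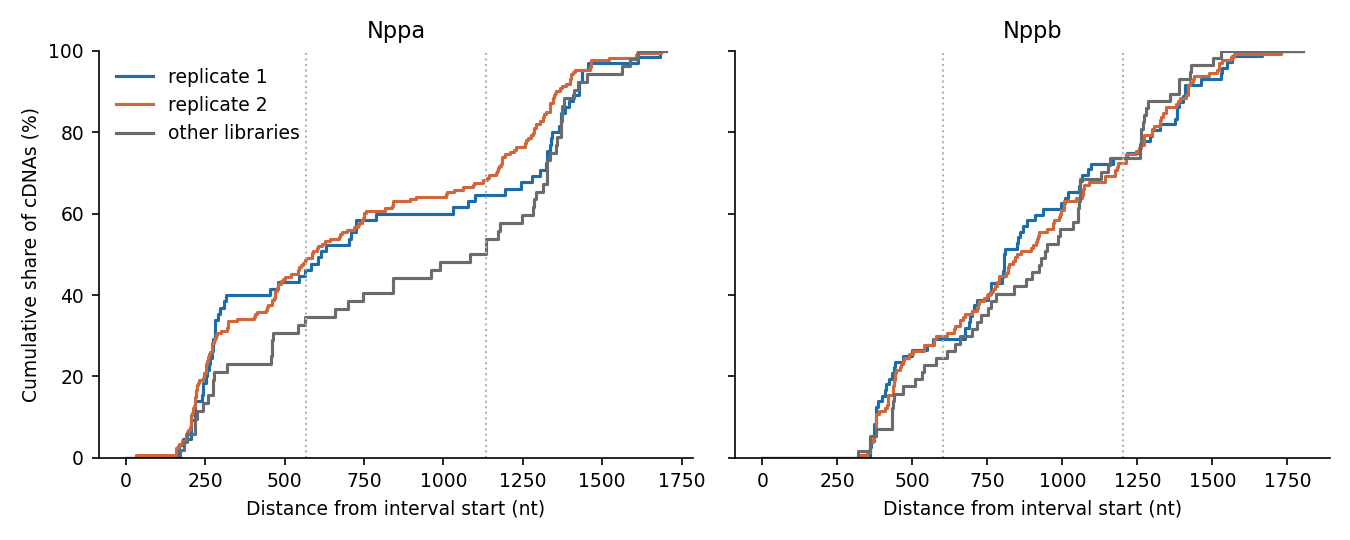
Cumulative share of cDNAs (%) along the Nppa and the Nppb interval, in nt from the interval start, for replicate 1, replicate 2 and the other libraries, with dotted lines between the 3 equal parts. The Nppa curves rise steeply at both ends and flatten in the middle, where 18.5% and 19.7% of the cDNAs of replicates 1 and 2 lie, and the Nppb curves climb steadily through a middle part that holds 44.4% and 42.3%.

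In bins of 50 nt the densest stretches were named as runs of bins above the mean of the interval, which was 7.0 cDNAs over both replicates for Nppa and 5.61 for Nppb. The leading Nppa run was the 200 nt from 147374850 to 147375049, with 26 cDNAs (40.0% of the gene) in replicate 1, 58 (33.5%) in replicate 2 and 12 (23.1%) in the other libraries. The run near the 3′ end, 147375950 to 147376149, held 18 cDNAs in replicate 1, 33 in replicate 2 and 17 in the other libraries. The first run was thus the larger one in both replicates and the smaller one in the other libraries. Between the outer runs were 4 short ones of 50 to 100 nt.

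Nppb had 4 runs. The first, the 150 nt from 147360050 to 147360199, held 19 cDNAs (26.4%) in replicate 1 and 31 (23.8%) in replicate 2. The longest, the 450 nt from 147360350 to 147360799, held 31 (43.1%) and 46 (35.4%), and a 200 nt run from 147360950 to 147361149 held 12 and 24. The middle cDNA of Nppb lay at 147360503 in replicate 1 and at 147360549 in replicate 2, inside its longest run. That of Nppa lay at 147375314 and 147375287, between its outer clusters and inside a short run of 100 nt, 147375250 to 147375349. The length of the longest Nppb run depends on the cut. Of its bins, 2 held 6 cDNAs over both replicates, above the Nppb mean of 5.61 but below the Nppa mean.

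Profiles in 50 nt bins of replicate 1 followed those of replicate 2 in both genes (Nppa, 34 bins, Pearson's r = 0.81 and Spearman's rho = 0.75; Nppb, 36 bins, r = 0.80 and rho = 0.80). The bins share a gene and a library, so these are descriptions. They include margin bins that were empty in both replicates, such as all Nppb bins up to nucleotide 300. Such shared zeros add to the correlations, which were not computed without them. At single nucleotides r was 0.15 in Nppa and 0.13 in Nppb.

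**Figure D3:**
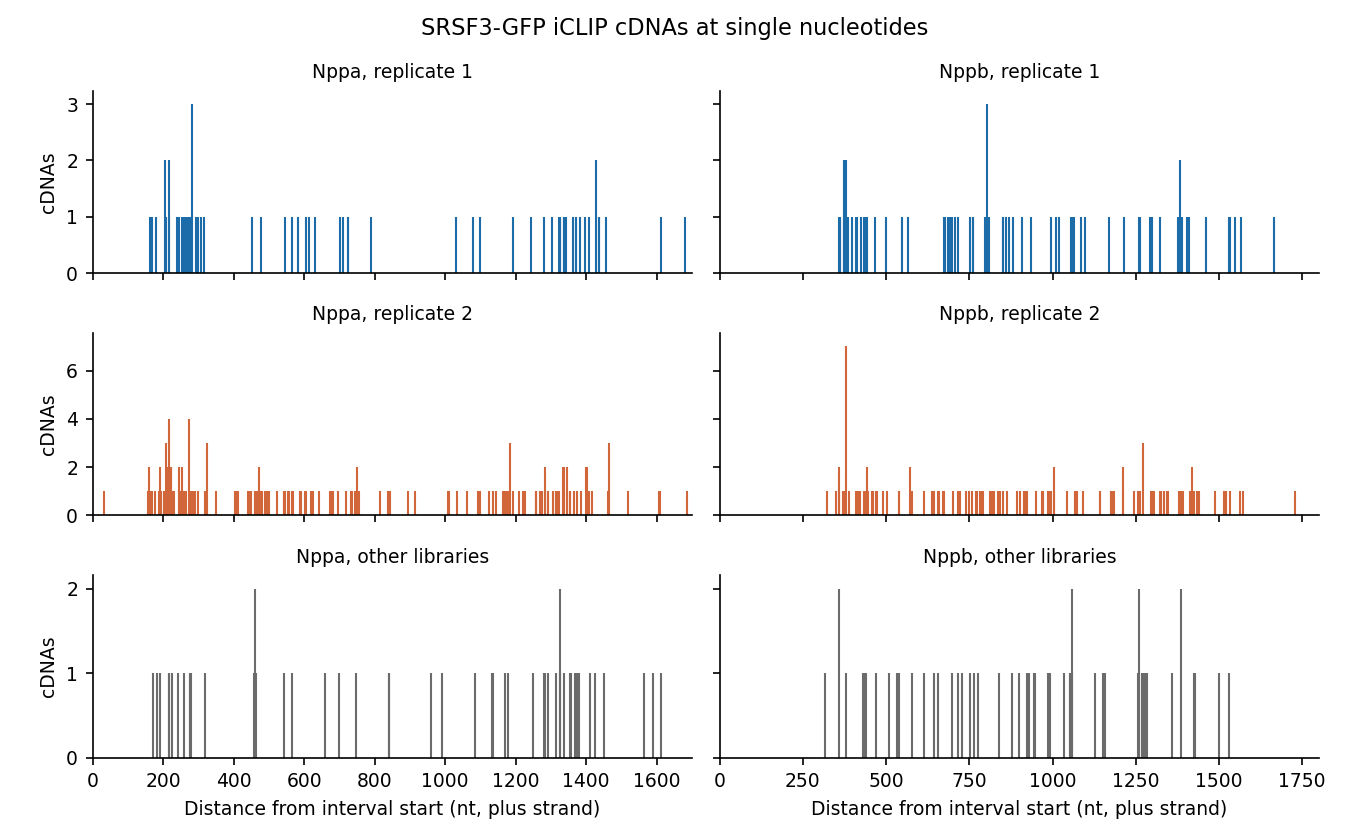
cDNAs at each single nucleotide of the Nppa (left) and Nppb (right) interval, in nt from the interval start along the plus strand, for replicate 1, replicate 2 and the other libraries. Each line is a listed position; most hold 1 cDNA, and the tallest is the Nppb position with 7 cDNAs in replicate 2.

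Single positions were sparse. A single cDNA was all that 93.3% of the Nppa positions had in replicate 1 and 85.4% in replicate 2, and all that 94.0% and 93.1% of the Nppb positions had. Of the 60 Nppa positions of replicate 1, 13 recurred at the same nucleotide in replicate 2, or 21.7% (Wilson 95% limits 13.1% and 33.6%), while replicate 2 listed 8.47% of the nucleotides of the interval. For Nppb 8 of 67 recurred, 11.9% (6.18% to 21.8%), beside 6.44% of nucleotides listed. Recurrence was above the listed share in both genes, with the lower Wilson limit above that share in Nppa and just below it in Nppb, and the genes were not tested against each other. The listed share is an average over dense and empty stretches, and no test was made of the recurrence.

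The position with the most cDNAs in each gene lay in its first run. In Nppa it was 147374916, with 2 cDNAs in replicate 1, 4 in replicate 2 and 1 in the other libraries. In Nppb it was 147360077, with 2, 7 and 1, which was 2.78% of the gene's cDNAs in replicate 1 and 5.38% in replicate 2. These were the only positions of either gene with at least 2 cDNAs in both replicates, and no other position reached more than 4 cDNAs in a library.

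The other Nppa positions of the rule were 147374906 (1 cDNA in replicate 1 and 3 in replicate 2), 147374981 (3 and 1), 147374904 (2 and 1) and 147374953 (1 and 2), all in the first run. Those of Nppb were 147360056, 147360071, 147360107 and 147360136, each with 1 cDNA in each replicate. They lie in the first Nppb run because ties went to the lower coordinate. Nucleotides 716, 850 and 1324 of the Nppb interval, beyond that run, also held 1 cDNA in each replicate. The longest stretch with no cDNA in any library between listed positions was 124 nt in Nppa, 147374733 to 147374856, and 91 nt in Nppb, 147361273 to 147361363. Counts of this size do not rank positions beyond counting error. Nppb position 147360503, chosen after its values were seen, held 3 cDNAs in replicate 1 and none in replicate 2.

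Outside the genes the plus strand was almost empty upstream and carried cDNAs downstream. In the 5 kb upstream of Nppa there were 0 cDNAs in replicate 1, which allows up to 0.6 per kb, and 1 in replicate 2. Upstream of Nppb there were likewise 0 and 1. The 5 kb downstream of Nppa held 15 cDNAs in replicate 1, 23.1% of the count in the gene, and 56 in replicate 2, 32.4%. Those downstream of Nppb held 12, or 16.7%, and 27, or 20.8%. No difference between the genes in this share passed (Fisher's exact test, adjusted p over the replicates 0.529 and 0.203).

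Against both 5 kb flanks together, the Nppa interval was 25.5 times as dense in replicate 1 and 17.8 times in replicate 2, a mean of 21.7 ± 5.40, and the Nppb interval 33.3 and 25.8 times, a mean of 29.5 ± 5.33 (SD, n = 2). The order of the genes turned with the width of the flanks. The mean was 13.1 for Nppa and 8.72 for Nppb with 1 kb flanks, and 44.8 and 42.5 with 20 kb flanks. The intervals lie 13199 nt apart, so a 20 kb flank reached past the other gene. That gene's interval was left out, but the cDNAs downstream of it were counted in the flank.

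How far the downstream signal reached was compared after the values were seen, and the difference between the genes passed in replicate 2 only. Beyond Nppa there were 6, 2, 5, 1 and 1 cDNAs in successive kb of replicate 1 and 15, 12, 15, 7 and 7 in replicate 2, and the sixth kb held 0 in both. Beyond Nppb there were 7, 2, 2, 1 and 0 cDNAs in replicate 1 and 24, 1, 0, 2 and 0 in replicate 2. The first kb thus took 26.8% of the downstream cDNAs of Nppa and 88.9% of those of Nppb in replicate 2 (two-sided Fisher's exact test, adjusted p = 1.52e-07). In replicate 1 it took 40.0% and 58.3% of 15 and 12 cDNAs, the same direction, which did not pass (Fisher's exact test, adjusted p = 0.449). In the other libraries it held 12 of 27 downstream cDNAs at Nppa and 11 of 15 at Nppb, which was not tested. The cut at 1 kb was chosen from these same counts, so the p-values are no independent test of it. Their adjustment covers only the 2 replicates, and distances run from the interval edges rather than the gene ends.

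**Figure D4:**
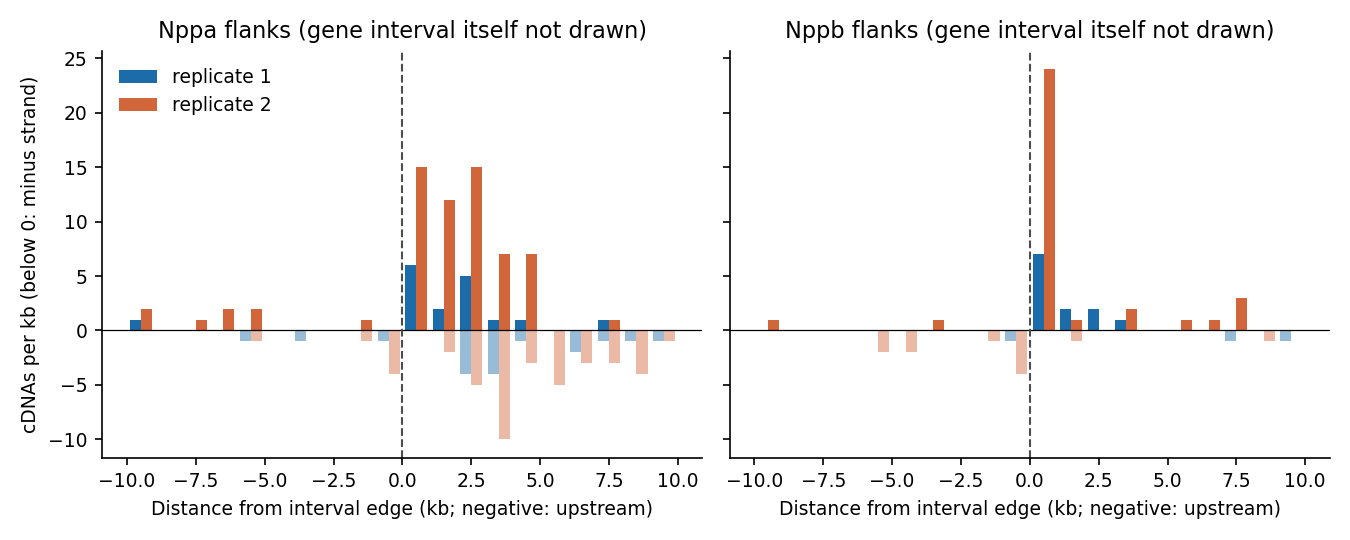
cDNAs per kb in the 10 kb on either side of the Nppa (left) and Nppb (right) interval, by distance from the interval edge in kb, with the plus strand above 0 and the minus strand, in paler colour, below. Most plus-strand cDNAs lie downstream. In replicate 2 they cover 5 kb at Nppa and gather in the first kb at Nppb (24 cDNAs). In replicate 1 the share of the first kb was 40.0% at Nppa and 58.3% at Nppb, a difference that did not pass.

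The minus strand held few cDNAs at both genes, and the genes were not tested against each other on it. Over Nppa it held 3 cDNAs in replicate 1 and 4 in replicate 2, against 65 and 173 on the plus strand. Over Nppb it held 0 in both, which allows up to 3 each. The 5 kb downstream of Nppa held 9 minus-strand cDNAs in replicate 1 and 20 in replicate 2, and those downstream of Nppb 0 and 1. The 5 kb upstream held 2 and 5 at Nppa and 1 and 7 at Nppb. In the GRCm38 annotation Nppa is overlapped by the antisense gene Gm13054 and followed by Clcn6, a chloride transporter gene of the CLC family on the minus strand, while no antisense gene is annotated over Nppb. Which of these RNAs the minus-strand cDNAs came from was not tested.

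The other libraries of the merged track held 52 cDNAs in Nppa and 57 in Nppb. Replicates 1 and 2 together had 77.5 CPM in Nppa, against 45.7 CPM in the other libraries, a log2 ratio of 0.76 (0.33 to 1.23, exact binomial test with Benjamini-Hochberg adjustment over 43750 regions, adjusted p = 0.00555). For Nppb they had 65.8 CPM, against 50.1 CPM in the other libraries, a log2 ratio of 0.39 (-0.04 to 0.85, adjusted p = 0.259, exact binomial test). Of the 225 Nppa positions of the merged track 34 (15.1%) were listed in neither replicate, and of the 215 Nppb positions 40 (18.6%). Of the regions 12.1% were called between the replicates and the other libraries, beside 23.8% at an unadjusted p under 0.05, and 4.42% were called higher in the replicates and 7.65% higher in the other libraries. The ratio of the 2 genes did not pass between the replicates and the other libraries (log2 odds ratio 0.37, Fisher's exact test, p = 0.240).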

How the data were processed

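The authors' deposited tracks give a score for single nucleotides, a signed whole number: its magnitude counts cDNAs and its sign tells the strand. The file headers name mm9, Ensembl 59 and cDNA hits in the genome, and Bowtie 0.10.1 is named in the submitters' processing notes. The treatment of duplicates and of reads with several matches is not stated there. From these scores cDNAs per interval were summed and divided by the library total. Tests were two-sided exact binomial and Fisher's exact tests (scipy 1.17.1) with Benjamini-Hochberg adjustment. Differences between libraries were tested over windows of 2 kb per strand with at least 20 cDNAs plus both gene intervals, a procedure also tested on simulated data. Named positions were the 5 per gene with the highest count in the lower replicate, ties going to the higher merged count and then the lower coordinate; named runs were 50 nt bins above the interval mean. The members, lists and tests were chosen with earlier results of these data known. Alternatives were other windows, scalings, interval ends, bins, flanks and leaving out a replicate. Sequences came from GENCODE M21 transcripts (GRCm38), and no coordinate was converted between builds. Markers of the labelled cell type were not analysed here.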

Additional observations from a re-analysis of the deposited data

Results flagged for a closer look

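The merged track held 52 Nppa cDNAs and 57 Nppb cDNAs beyond both replicates, flagged because they lie in libraries outside the replicated measurement and exceed the 3 cDNAs that a count of 0 allows. On the minus strand over Nppa the merged track held 12 cDNAs, of which 3 were in replicate 1, 4 in replicate 2 and 5 in the other libraries. They were flagged because the comparisons of the genes use the plus strand alone and the merged count exceeds the same limit. None was listed on the minus strand over Nppb, a difference that was not tested. The antisense gene Gm13054 is annotated there in GRCm38, and its part in this count was not tested.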

How the results depend on the processing

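With 65 to 173 cDNAs per gene and replicate, most positions held 1 cDNA, which limits what single nucleotides can show. The log2 ratio of Nppa to Nppb was 0.49 without replicate 1 and -0.065 without replicate 2, so its direction and its call rested on replicate 2. Counting each listed position once, in the library total as well, gave a mean Nppa level of 43.1 per kb. That value is scaled to the listed positions of each library rather than to its cDNAs, so it is not in CPM. With the interval shortened by 100 nt at each end the Nppa level was 50.7 CPM per kb, and the Nppb share in the 3′ part was 29.0%. Shared positions in Nppa were 38.3% within 1 nt, where 21.9% of nucleotides would match, 78.3% within 5 nt, where 51.2% would, and 75% (3 of 4) among positions with at least 2 cDNAs. In Nppb they were 26.9% (16.9% would match), 68.7% (43.8% would match) and 25% (1 of 4). Profile correlations in bins of 25 nt, 100 nt and single nucleotides were 0.68, 0.88 and 0.15 for Nppa and 0.63, 0.83 and 0.13 for Nppb. The ratio to the flanks for Nppa was 13.1 with 1 kb flanks, 44.8 with 20 kb flanks and 10.9 downstream only. For Nppb these were 8.72, 42.5 and 15.0. A 20 kb flank took in cDNAs downstream of the other gene. The 5 kb upstream flank alone gave no ratio, since replicate 1 held 0 cDNAs there. The downstream, middle-part and single-flank comparisons were chosen after seeing the data. The middle-part difference between Nppa and Nppb, in percentage points, was -26.0 in replicate 1 and -22.7 in replicate 2. As a mean of both it lay between -24.3 and -19.7 over the alternatives, the smallest single value being -15.5 in replicate 2 over the span of the middle 95% of cDNAs, and Fisher's exact test passed in both replicates each time. Regions that differed between the replicates numbered 15 of 26000, all higher in replicate 1, or 13 of 13922 with 10 kb windows and at least 50 cDNAs, of which 2 were higher in replicate 2. Neither gene was called between the replicates under any alternative run (exact binomial test, adjusted p of Nppb 0.627 to 1). Leaving out a replicate gave 45.1 to 46.9 CPM per kb for Nppa and 32.0 to 49.0 for Nppb. No paired analysis was possible because the iCLIP samples form 1 group and the heart samples are not analysed here.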
